A study of Mus musculus with 15 samples.

Results

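The intestinal identity transcription factors compared here are Hnf4a, Hnf4g, Elf3, Cdx1, Cdx2, Gata4, Gata5, Gata6 and Pdx1, taken by symbol from a gene count table of sorted mouse epithelium. All 9 symbols were found among its 24594 rows, 1 row each. The table holds 6 RNA-seq libraries in 2 groups of 3, both from the proximal intestine of C57Bl/6J mice without treatment. The fetal group was sorted in late gestation at E16.5 as EpCAM-positive cells negative for DAPI, CD31 and CD45, and its genotype is not labelled. The adult group was sorted from wild-type crypts of the first 20% of the small intestine as EpCAM-positive cells with middle CD24 that were negative for DAPI and lineage markers. Whole crypts hold stem, progenitor, Paneth and other secretory cells but few villus enterocytes, and which of these the middle CD24 gate kept is not labelled. The fetal gate set no limit on CD24, so age and sorted population changed together and cannot be told apart. The other 9 of the 15 samples of the series are organoids, whose table names no genes, and they are not analysed here.

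These factors are the core of the network that makes endoderm intestinal and keeps it so. CDX homeodomain proteins set intestinal against gastric fate, HNF4 nuclear receptors drive the absorptive enterocyte programme with the CDX proteins, and GATA zinc-finger proteins set proximal identity and support growth. Pdx1 is a ParaHox homeodomain factor of the duodenum, antral stomach and pancreas, and Elf3 is an epithelium-specific ETS factor needed for enterocyte and goblet cell maturation. Several act in redundant pairs, so the balance between paralogs matters as well as the level of each gene.

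The promoters of the 3 factors that were about 2-fold lower in fetal cells and of 1 that was higher are shown, since the counts of a gene pool all of its start sites. Hnf4a has 2 well-known promoters, with RefSeq starts 40.3 kb apart, and the gene counts cannot say which of them was used. The sequences are the 250 bases before each start, from RefSeq on the mouse assembly mm10 (GRCm38), written 5′ to 3′ on the strand of the gene. These starts are not always the outer end of the gene. The Gata5 and downstream Hnf4a windows lie within the gene spans given below, and the upstream Hnf4a window ends just inside its span. Capitals mark matches on either strand to any of 4 short motifs. The letters searched were CAAAGTCCA for HNF4 factors, TTTATG for CDX factors, AGATAA for factors of the GATA family and GGAATG for TEAD factors.
Hnf4a upstream start, chr2:163506607-163506856, plus strand: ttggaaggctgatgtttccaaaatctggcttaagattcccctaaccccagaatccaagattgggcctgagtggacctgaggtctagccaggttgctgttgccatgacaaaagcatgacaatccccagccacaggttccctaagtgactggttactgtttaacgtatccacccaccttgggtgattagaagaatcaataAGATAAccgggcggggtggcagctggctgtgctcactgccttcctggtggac
Hnf4a downstream start, chr2:163546905-163547154, plus strand: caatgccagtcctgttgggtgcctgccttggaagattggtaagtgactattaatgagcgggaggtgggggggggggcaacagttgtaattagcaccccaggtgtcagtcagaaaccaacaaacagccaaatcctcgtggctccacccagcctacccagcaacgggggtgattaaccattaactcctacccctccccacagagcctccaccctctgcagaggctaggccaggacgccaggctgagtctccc
Elf3, chr1:135258473-135258722, minus strand: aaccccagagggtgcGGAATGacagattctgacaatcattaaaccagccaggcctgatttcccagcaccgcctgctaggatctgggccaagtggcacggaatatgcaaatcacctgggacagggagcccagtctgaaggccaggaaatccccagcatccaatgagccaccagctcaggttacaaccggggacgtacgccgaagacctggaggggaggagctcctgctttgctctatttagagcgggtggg
Gata5, chr2:180334680-180334929, minus strand: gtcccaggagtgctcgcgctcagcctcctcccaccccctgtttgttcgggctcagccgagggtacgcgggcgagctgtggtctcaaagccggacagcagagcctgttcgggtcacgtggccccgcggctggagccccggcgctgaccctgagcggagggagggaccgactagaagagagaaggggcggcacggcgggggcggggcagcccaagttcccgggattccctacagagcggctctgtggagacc
Pdx1, chr5:147269847-147270096, plus strand: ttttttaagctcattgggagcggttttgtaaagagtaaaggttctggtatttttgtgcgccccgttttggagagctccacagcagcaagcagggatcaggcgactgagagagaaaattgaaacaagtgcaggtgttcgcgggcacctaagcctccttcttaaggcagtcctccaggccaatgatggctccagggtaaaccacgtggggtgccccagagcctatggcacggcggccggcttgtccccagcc
The upstream Hnf4a window held a GATA match 52 to 47 bases before the start. The Elf3 window held a TEAD match 235 to 230 bases before the start. The downstream Hnf4a window and the Gata5 and Pdx1 windows held none of these letters. Of 32851 mouse promoter windows of 250 bases, 9.99% held the GATA letters, 12.6% the TEAD letters, 10.8% the CDX letters and 0.384% the HNF4 letters. A match is a description of the sequence and no evidence of binding.

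Of the identity factors, 5 were lower in fetal than in adult crypt epithelium, led by Elf3 and Hnf4a, and Hnf4g, Gata6 and Pdx1 were higher. Scaling the libraries to 6 epithelial genes instead gave 3 lower and 5 higher, where 9386 of all 13257 genes were called higher and 1050 lower. In the edgeR quasi-likelihood test across 13314 genes, 8 of the 9 factors were called at an adjusted p under 0.05. Of all tested genes 54.9% were called, so a call by itself says little in this comparison. Called higher in fetal cells were 3 of the 9, against 29.0% of all tested genes, and called lower were 5 of the 9, against 25.9%. The groups did not overlap for 8 of the 9, against 62.3% of all tested genes. The median log2 fold change of the 9 was −0.28, beside 0.0062 for all tested genes, and their median size was 0.52, beside 0.41. Changes over 2-fold were found for Hnf4a and Elf3, beside 3183 of all 13314 tested genes that were called and over 2-fold. Of tested genes, 20.8% had a larger change than Elf3. Each factor had at least 269 counts in every library. Without fetal replicate 3, which held the most RNA of stomach genes, 6 factors were called, 2 higher and 4 lower.

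**Figure D1:**
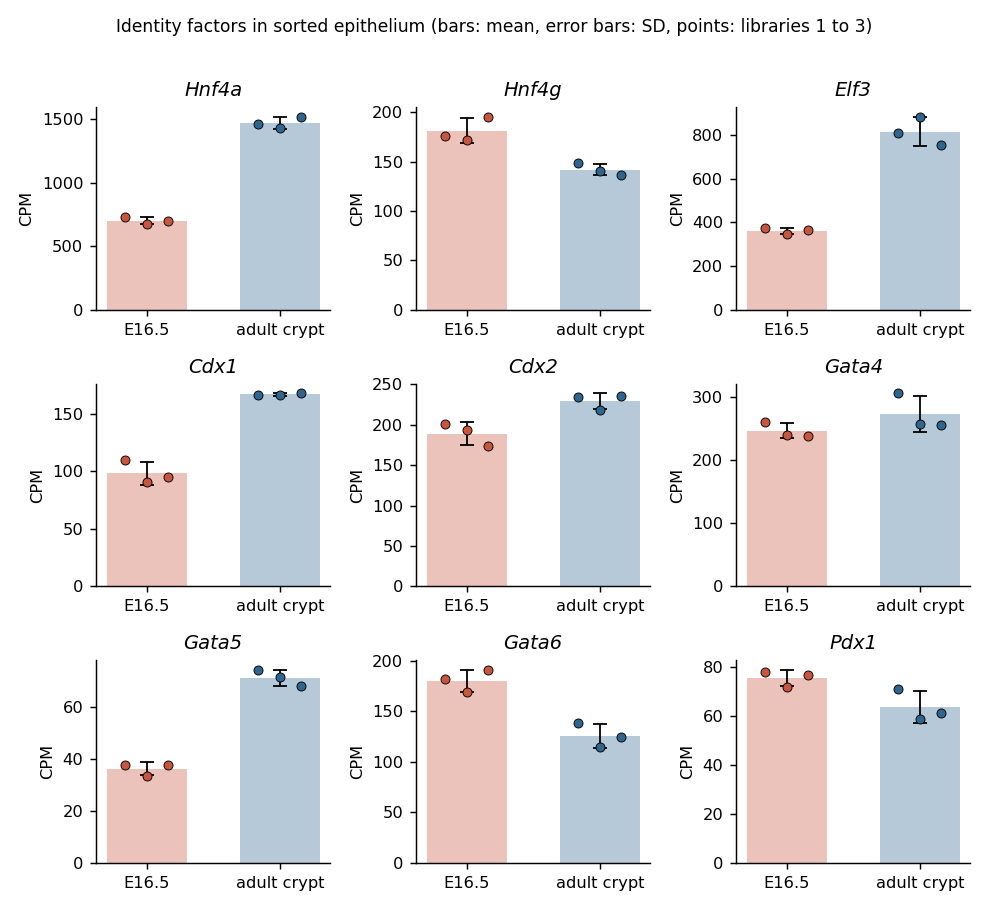
CPM (counts scaled to a common library size) of each identity factor in the 3 E16.5 and 3 adult crypt libraries. Bars are group means, error bars the SD and points the libraries, with 1 panel and 1 vertical scale starting at 0 per gene. The fetal points lie below the adult points for Hnf4a, Elf3, Cdx1, Cdx2 and Gata5, above them for Hnf4g, Gata6 and Pdx1, and overlap them for Gata4.

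Total counts were 5795518 to 10538004 per library, and the 9 factors together took 1994 to 2149 CPM in fetal against 3322 to 3409 CPM in adult libraries. CPM is scaled here by the library size after TMM normalization (trimmed mean of M-values), with factors of 0.977 to 1.018. Replicate libraries were further apart than sampling noise alone would put them (chi-square divided by its degrees of freedom 4.83 or more) and each entered as a sample. Whether they came from separate animals is not labelled, so a p-value here measures only the spread between libraries, part of which may be technical. The adult libraries were made with a stranded total RNA kit for low input, and the kit of the fetal libraries is not given in the sources used here. Epithelial identity genes were present in both groups, with Epcam at 843 ± 12.9 (SD, n = 3) and 1032 ± 51.1 CPM in fetal and adult cells. In bulk samples, fewer cells of a type and less RNA per cell cannot be told apart.

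Hnf4a and Hnf4g, the paralogous nuclear receptors, changed in opposite directions. Hnf4a (Entrez 15378, chromosome 2, 163506811 to 163572907 in mm10, plus strand) stood at 733, 676 and 702 CPM in the fetal libraries and at 1463, 1433 and 1521 CPM in the adult libraries. Every fetal library was at about the same level, far below every adult library. The mean was 704 ± 28.5 against 1472 ± 44.6 CPM (SD, n = 3), or 2.09-fold lower in fetal cells, with a log2 fold change of −1.06 ± 0.09 (SE, 95% interval −1.25 to −0.88, edgeR adjusted p = 2.87e-07). It was the most abundant of the 9 by counts and took 33.9% to 34.1% of their summed CPM in fetal and 42.9% to 45.8% in adult libraries.

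Hnf4g (Entrez 30942, chromosome 3, 3508030 to 3659800, plus strand), which shares much of the enterocyte role of Hnf4a, stood at 176, 172 and 195 CPM in fetal and 148, 140.4 and 137 CPM in adult libraries. Its lowest fetal library was above its highest adult library, with fetal replicate 3 the highest of the 6. The mean was 181 ± 12.6 against 142 ± 5.80 CPM (SD, n = 3), a log2 fold change of 0.35 ± 0.08 (SE, 95% interval 0.17 to 0.53, edgeR adjusted p = 0.00306). Its share of the summed CPM of the 9 factors was 8.17% to 9.42% in fetal and 4.11% to 4.34% in adult libraries.

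Elf3 (Entrez 13710, chromosome 1, 135253574 to 135258472, minus strand) was lower in fetal cells. It stood at 373, 348 and 364 CPM in fetal and at 809, 883 and 753 CPM in adult libraries, so the adult libraries spread more widely but stayed well above the fetal ones. The mean was 361 ± 12.9 against 815 ± 65.2 CPM (SD, n = 3), or 2.25-fold lower in fetal cells, with a log2 fold change of −1.17 ± 0.09 (SE, 95% interval −1.36 to −0.98, edgeR adjusted p = 1.60e-07). The ELF group holds further ETS factors. Of the 3 that could be tested, Elf4 was higher in fetal cells by a log2 fold change of 0.87 ± 0.08, and Elf2 was lower by −0.60 ± 0.08 (edgeR adjusted p = 1.77e-06 and 3.87e-05). Scaling to 6 epithelial genes gave 2 of the 3 higher and 0 lower, where 9386 of all 13257 genes were called higher and 1050 lower. Elf1 was at 206, 207 and 211 CPM in fetal and 208, 193 and 202 CPM in adult libraries and was not called (edgeR adjusted p = 0.616, 95% interval of the log2 fold change −0.12 to 0.21). Elf5, a factor of glandular epithelium, had 34 counts over the fetal and 2 over the adult libraries and was not tested.

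The homeobox genes Cdx1 and Cdx2 were both lower in fetal cells, Cdx1 by more, although with the libraries scaled to 6 epithelial genes Cdx2 turned higher and the Cdx1 call was lost (log2 fold change −0.16, edgeR adjusted p = 0.131). Cdx1 (Entrez 12590, chromosome 18, 61018862 to 61036199, minus strand) stood at 109.6, 90.5 and 94.8 CPM in fetal and 166, 166 and 168 CPM in adult libraries. The adult libraries were nearly equal, and fetal replicate 1 was the highest of the fetal ones but still far below them. The mean was 98.3 ± 10.0 against 167 ± 1.01 CPM (SD, n = 3), with a log2 fold change of −0.76 ± 0.09 (SE, 95% interval −0.96 to −0.57, edgeR adjusted p = 1.02e-05).

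Cdx2 (Entrez 12591, chromosome 5, 147300900 to 147307249, minus strand), the factor that sets intestinal fate in the embryo, was close to its adult level at E16.5. It stood at 201, 193 and 173 CPM in fetal and 234, 218 and 235 CPM in adult libraries. The groups did not overlap, but the highest fetal and the lowest adult library lay near each other. The mean was 189 ± 14.2 against 229 ± 9.77 CPM (SD, n = 3), with a log2 fold change of −0.28 ± 0.08 (SE, 95% interval −0.46 to −0.10, edgeR adjusted p = 0.0135). Without fetal replicate 3, the lowest library, the log2 fold change was −0.21 and the call was lost (edgeR adjusted p = 0.0700). Cdx4, the third CDX gene, which acts in the early embryo, had 2 counts over the fetal and 0 over the adult libraries, which allows up to 0.173 CPM in adult cells, counting error only.

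The GATA factors of the gut split, with Gata5 lower, Gata6 higher and Gata4 not called, or called higher under the scaling to 6 epithelial genes. Gata4 (Entrez 14463, chromosome 14, 63198914 to 63271712, minus strand), needed for jejunal identity, stood at 260.0, 240.1 and 238 CPM in fetal and 306, 257 and 255 CPM in adult libraries. The groups overlapped, and adult replicate 1 was the highest. The mean was 246 ± 12.1 against 273 ± 28.7 CPM (SD, n = 3), with a log2 fold change of −0.15 ± 0.09 (SE) that was not called (edgeR adjusted p = 0.190), and the 95% interval of −0.34 to 0.05 leaves room for a modest difference.

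Gata5 (Entrez 14464, chromosome 2, 180325088 to 180335503, minus strand), which acts with the other GATA factors in endoderm, stood at 37.6, 33.5 and 37.6 CPM in fetal and 74.1, 71.5 and 67.8 CPM in adult libraries. Each adult library was well above each fetal one, with a mean of 36.2 ± 2.38 against 71.1 ± 3.16 CPM (SD, n = 3). It was 1.96-fold lower in fetal cells, with a log2 fold change of −0.97 ± 0.10 (SE, 95% interval −1.18 to −0.76, edgeR adjusted p = 2.38e-06). Gata6 (Entrez 14465, chromosome 18, 11052510 to 11085636, plus strand), which supports proliferation in crypts, stood at 182, 169 and 191 CPM in fetal and 139, 115 and 125 CPM in adult libraries. It was higher in every fetal library than in any adult library, with a mean of 181 ± 10.8 against 126 ± 11.9 CPM (SD, n = 3). The log2 fold change was 0.52 ± 0.09 (SE, 95% interval 0.32 to 0.72, edgeR adjusted p = 3.41e-04), the largest rise of the 9. The blood and neural GATA genes were at the limit of detection, with 5 and 0 counts of Gata1 over the fetal and adult libraries, 1 and 3 of Gata2, and 0 of Gata3 in both groups, which allows up to 0.112 CPM in fetal cells and up to 0.173 CPM in adult cells.

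Pdx1 (Entrez 18609, chromosome 5, 147270097 to 147275848, plus strand) lies 25.1 kb from Cdx2 and is transcribed in the opposite direction. Pdx1 stood at 78.3, 71.8 and 76.9 CPM in fetal and 71.1, 58.9 and 61.3 CPM in adult libraries. The lowest fetal library was only just above the highest adult one. The mean was 75.7 ± 3.41 against 63.8 ± 6.46 CPM (SD, n = 3), with a log2 fold change of 0.25 ± 0.10 (SE, 95% interval 0.04 to 0.46, edgeR adjusted p = 0.0450). This is the least certain of the 8 calls. It was lost without any 1 of fetal replicates 1, 2 and 3 (edgeR adjusted p = 0.109, 0.0561 and 0.0855) or adult replicates 2 and 3 (0.168 and 0.111), and also in DESeq2 (adjusted p = 0.0872). The fitted log2 fold change stayed between 0.19 and 0.33 in these fits and without adult replicate 1.

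Most tested markers of pancreas, where Pdx1 is also expressed, were called higher in fetal cells. Of all tested genes, 29.0% were called higher and 25.9% lower. Of 14 acinar genes, 12 were tested and all 12 were higher in fetal cells, and their summed level was 1749 to 3663 CPM in fetal against 5.69 to 7.06 CPM in adult libraries. Most of the 12 had few or no adult counts and passed the filter on low counts only through the fetal libraries. Their calls were nearly fixed in advance and do not compare with the 29.0%. Over the adult libraries, 3 of these genes had 0 counts, the acinar factor Ptf1a among them, while Ptf1a was at 10.8 ± 3.39 CPM (SD, n = 3) in fetal cells. Of 7 islet and progenitor genes, 4 were higher and 1 lower of 6 tested, with sums of 156.6 to 215.5 against 42.2 to 81.3 CPM, and Ins2 had 0 adult counts. The 4 higher islet and progenitor genes likewise passed the filter only through the fetal libraries. The acinar sum was highest in fetal replicate 2, at 3663 CPM, where Pdx1 was the lowest of the fetal libraries, at 71.8 CPM. Of 8 enteroendocrine genes, 7 were higher and 1 lower, with sums of 1947 to 2670 against 1803 to 2175 CPM, and the single lower gene, Chga, was at −1.31 ± 0.11 on the log2 scale. The part of these cells in the Pdx1 difference was not tested.

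Markers of other tissues also differed between the groups, where 29.0% of all tested genes were called higher and 25.9% lower. Of 13 stomach genes, 5 were higher and 1 lower of 7 tested, with sums of 42.6 to 338 CPM in fetal, highest in replicate 3, against 15.2 to 15.9 CPM in adult libraries. The gastric factor Sox2 was at 7.11 CPM in fetal replicate 3, at 0.125 and 0 CPM in the other fetal libraries and at 0 counts in adult cells. Fetal replicate 3 was also the library with the least Cdx2, at 173 CPM, and the part of gastric cells in that value was not tested. Mesenchyme genes summed to 117.8 to 166.9 CPM in fetal against 0.508 to 3.00 CPM in adult libraries, with 10 of 14 tested and all 10 higher. These 10 had few or no adult counts and passed the filter on low counts only through the fetal libraries, so their calls were nearly fixed in advance. Mesothelium, endothelium and blood genes had 1 of 1 higher, 1 of 1 lower and 3 of 3 higher among those tested, and none of these lists summed to more than 61.6 CPM in any library. Several tested genes of these lists and of the stomach list also passed the filter through 1 group only. Such calls do not compare with the 29.0% and 25.9%. Of 8 liver genes 2 were tested, and Afp was lower in fetal cells at −1.76 ± 0.17 on the log2 scale while Apoh was not called. Of the sort markers, Cd24a was at 287 ± 24.1 in fetal and 283 ± 32.3 CPM in adult cells (SD, n = 3) and was not called, and Ptprc, which encodes CD45, was at or below 0.863 CPM in every library.

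A ratio of paralogs within a library needs no scaling between libraries and was computed on counts per kilobase of exon. Hnf4a exceeded Hnf4g 2.52, 2.37 and 2.17 times in fetal and 5.95, 6.15 and 6.71 times in adult libraries. The log2 ratio differed by −1.42 ± 0.08 (SE), so the balance moved 2.67-fold toward Hnf4g in fetal cells. Cdx1 was at 0.706, 0.606 and 0.708 times the level of Cdx2 in fetal and 0.916, 0.987 and 0.923 times in adult libraries, a log2 difference of −0.49 ± 0.08. The CDX pair was thus nearly even in adult crypts and tilted toward Cdx2 in fetal cells.

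Within the GATA trio, Gata5 was at 0.205, 0.196 and 0.195 times the level of Gata6 in fetal and 0.528, 0.614 and 0.538 times in adult libraries, a log2 difference of −1.49 ± 0.07 or 2.82-fold. The ratio of Gata4 to Gata6 was 1.27, 1.26 and 1.11 in fetal and 1.96, 1.99 and 1.81 in adult libraries, a log2 difference of −0.66 ± 0.08. The ratio of Gata4 to Gata5 went the other way, at 6.21, 6.44 and 5.69 in fetal and 3.71, 3.24 and 3.38 in adult libraries (log2 difference 0.83 ± 0.08). As shares of the summed GATA level per kilobase, Gata4 made up 50.3% ± 1.85 in fetal and 55.2% ± 1.01 in adult libraries, Gata5 8.22% ± 0.249 and 16.1% ± 0.952, and Gata6 41.5% ± 1.66 and 28.8% ± 1.03 (SD, n = 3). Gata4 was the leading GATA transcript in both groups. The share of Gata6 differed between them the most and that of Gata4 the least. For all 5 ratios the groups did not overlap, and each exact two-sided permutation p was 0.1, also after Benjamini-Hochberg adjustment over the 5, which is the smallest that 3 against 3 libraries allow. The GATA ratios share genes and are not independent. Of all tested single genes 62.3% did not overlap, and the share among other pairs of genes was not computed.

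**Figure D2:**
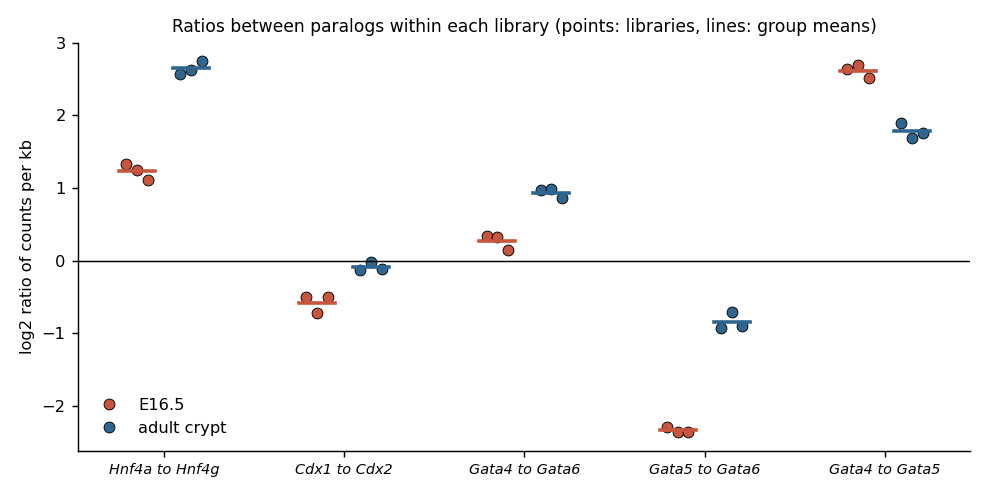
Log2 ratio of counts per kilobase of exon for 5 pairs of paralogs, with 1 point per library and a line at each group mean. Points above 0 mean that the first-named gene had the higher level. The E16.5 points lie below the adult points for Hnf4a to Hnf4g, Cdx1 to Cdx2, Gata4 to Gata6 and Gata5 to Gata6, and above them for Gata4 to Gata5.

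Levels per kilobase of exon set the factors beside each other. In fetal cells Elf3 (172.5 ± 6.16 CPM per kb, SD, n = 3) and Hnf4a (161.3 ± 6.53) led and overlapped. Cdx2 (83.6 ± 6.29) came next, followed by Hnf4g (68.8 ± 4.79) and Gata4 (67.5 ± 3.32), which overlapped, and by Cdx1 (56.2 ± 5.72) and Gata6 (55.8 ± 3.35), which overlapped. Pdx1 (35.1 ± 1.58) and Gata5 (11.1 ± 0.726) were lowest and separate. In adult cells the order was Elf3 (389 ± 31.1), Hnf4a (337.5 ± 10.2), Cdx2 (101.3 ± 4.32), Cdx1 (95.3 ± 0.576), Gata4 (74.8 ± 7.87), Hnf4g (53.9 ± 2.20), Gata6 (39.0 ± 3.69), Pdx1 (29.5 ± 3.00) and Gata5 (21.7 ± 0.964), and no neighbours in this order overlapped. Elf3, Hnf4a and Cdx2 led at both ages, while Hnf4g stood above Cdx1 in fetal and below it in adult cells. Exon length is the union of annotated exons, so the order between genes also rests on which isoforms are present.

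The direction of the smaller changes depended on what was held constant between the libraries. Keratins and other epithelial genes were themselves lower in fetal cells under TMM, with 5 of 6 called lower, against 25.9% of all tested genes. Krt19 (−1.36 ± 0.09 on the log2 scale) and Krt8 (−1.11 ± 0.08) led them. Scaled to their own sum, 4 of these 6 were called higher and 2 lower, where 9386 of all 13257 genes were called higher and 1050 lower. Holding that sum equal puts some of the 6 above 0 and others below it, so this split is no result about them. With the summed counts of Epcam, Cdh1, Krt8, Krt18, Krt19 and Vil1 as library size, the median gene shifted by 0.61 on the log2 scale. Cdx2 then turned to 0.33 (edgeR adjusted p = 0.00493) and Gata4 to 0.46 (edgeR adjusted p = 9.51e-04), both called higher in fetal cells, and Cdx1 was at −0.16 and no longer called (edgeR adjusted p = 0.131). Relative to the median gene, these values were below that shift. With the sum of Epcam, Cdh1 and Vil1 alone, chosen after seeing that the keratins fell most, the median gene shifted by 0.24, Cdx2 was at −0.041 (edgeR adjusted p = 0.734) and Gata4 at 0.088 (edgeR adjusted p = 0.502). Hnf4a (−0.46 and −0.83), Elf3 (−0.56 and −0.93) and Gata5 (−0.36 and −0.73) were called lower, and Hnf4g (0.96 and 0.59), Gata6 (1.12 and 0.75) and Pdx1 (0.85 and 0.48) higher, under the 6-gene and the 3-gene sum.

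**Figure D3:**
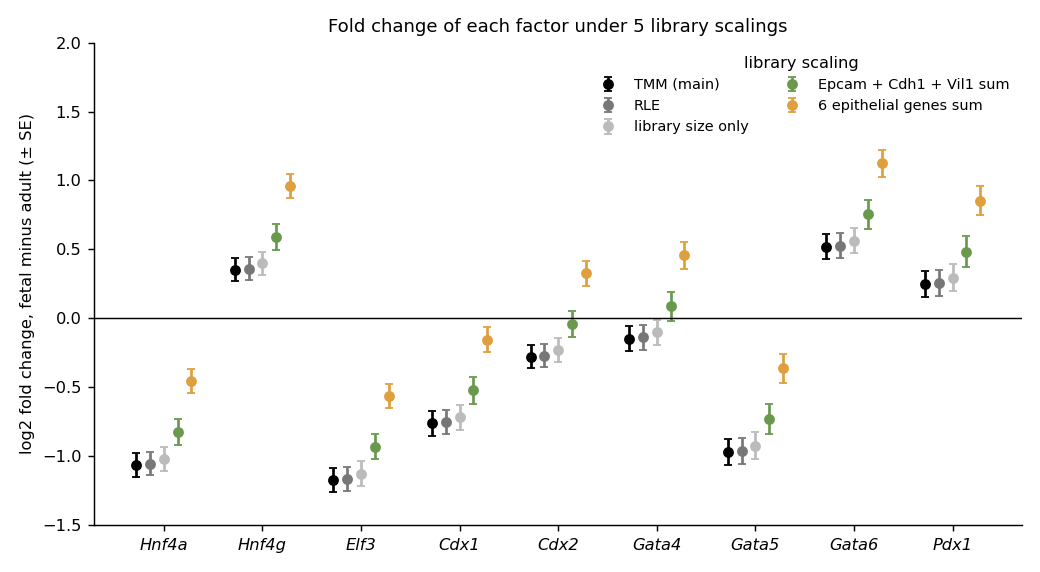
Log2 fold change (fetal minus adult) of each factor under 5 ways of scaling the libraries, with SE as error bars and a line at 0. Hnf4a, Elf3, Cdx1 and Gata5 stay below 0 and Hnf4g, Gata6 and Pdx1 above 0 in each, while Cdx2 crosses 0 under the 6-gene epithelial sum and Gata4 under both epithelial sums.

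Other transcription factors of the gut epithelium went both ways, with 7 higher, 7 lower and 3 not called of 17 tested, or 12 higher and 1 lower under the 6-gene epithelial sum and 7 higher and 4 lower under the 3-gene sum. The list had 18 genes, of which the GATA cofactor Zfpm2 was too low to test, and its median log2 fold change was −0.13. Over all tested genes 29.0% were called higher and 25.9% lower. Under the 6-gene sum 9386 of 13257 were called higher and 1050 lower, and under the 3-gene sum 5672 of 13282 higher and 1951 lower. Prdm1, which holds back adult enterocyte genes until weaning, was at 176, 161 and 169 CPM in fetal and 2.82, 2.88 and 4.83 CPM in adult libraries, the widest difference of the list at 5.58 ± 0.15 on the log2 scale (edgeR adjusted p = 2.00e-11). Creb3l3, a regulator of lipid genes in liver and gut, was at 114, 135 and 154 against 29.6, 34.5 and 18.1 CPM (log2 fold change 2.29 ± 0.18, edgeR adjusted p = 2.62e-07).

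Smaller rises were found for forkhead and other endoderm factors. Maf was higher by 0.70 ± 0.09 on the log2 scale, Foxa2 by 0.68 ± 0.16, Onecut2 by 0.63 ± 0.08, Foxa1 by 0.53 ± 0.13 and Nr5a2 by 0.40 ± 0.08. Among the factors that fell, Ehf, an ETS factor of the same epithelial subfamily as Elf3, was at 102, 105 and 117 CPM in fetal and 339.7, 391 and 386 CPM in adult libraries (log2 fold change −1.79 ± 0.09, edgeR adjusted p = 4.60e-09). Elf3 and Ehf were thus both lower in fetal cells, by different amounts.

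Klf5, a regulator of crypt proliferation, was at −0.76 ± 0.09, Klf4, a factor of goblet cells, at −0.73 ± 0.16, and Smad4, the common mediator of TGF-beta and BMP signals, at −0.52 ± 0.09 on the log2 scale. Sox9, of stem and Paneth cells, was at −0.43 ± 0.10, and the homeobox factor Isx and the GATA cofactor Zfpm1 were both at −0.24 ± 0.09. Foxa3 (−0.22), Tcf7l2 (−0.13) and Grhl2 (−0.10) were not called.

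**Figure D4:**
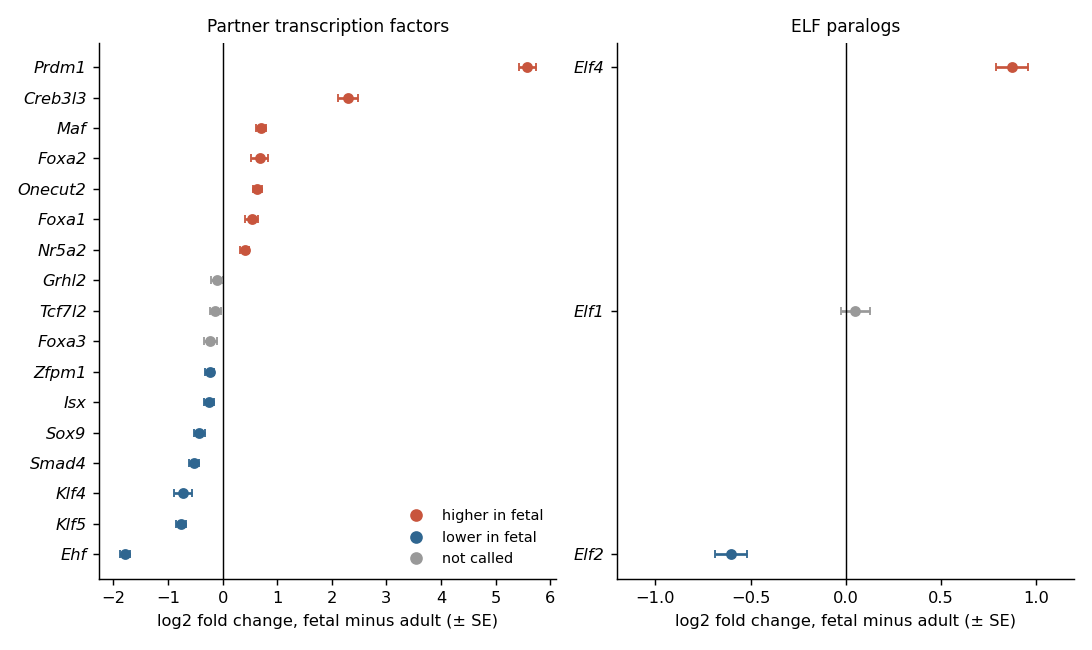
Log2 fold change (fetal minus adult) with SE of 17 tested partner transcription factors of the gut epithelium, left, and of 3 tested ELF paralogs, right. Red points were called higher in fetal cells, blue points lower and grey points not called, at an edgeR adjusted p under 0.05. Prdm1 and Creb3l3 stand apart on the high side and Ehf on the low side.

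Genes that HNF4 factors are known to drive in enterocytes were mostly higher in fetal cells, although Hnf4a was lower. Of 18 such genes 17 were tested, with 11 higher, 3 lower and 3 not called, and a median log2 fold change of 1.13, where 29.0% of all tested genes were called higher and 25.9% lower. Most of the higher genes belong to lipid transport. Apoa1, the main protein of high-density lipoprotein, was at 1321, 1740.2 and 1654 CPM in fetal and 272, 311 and 262 CPM in adult libraries (log2 fold change 2.48 ± 0.12, edgeR adjusted p = 2.62e-09). Apob, the backbone of chylomicrons, was at 2365, 2519 and 2382 against 611, 676 and 722 CPM (log2 fold change 1.86 ± 0.10, edgeR adjusted p = 5.35e-09). The transthyretin gene Ttr and the lipoprotein lipase inhibitor Apoc3 were higher by 3.30 ± 0.14 and 3.23 ± 0.16 on the log2 scale. The 3 lower genes, named after their values were seen, were the brush border myosin Myo1a at −1.29 ± 0.10 on the log2 scale, the glucose-6-phosphatase G6pc at −1.02 ± 0.41 and the brush border cadherin Cdhr2 at −0.25 ± 0.09 (edgeR adjusted p = 1.37e-07, 0.0486 and 0.0366). The groups overlapped for G6pc, and 1 gene was called lower without fetal replicate 1 or 2 or adult replicate 1 or 2, under library size alone and with the replicate block. Myo1a stood at 203, 233 and 249 CPM in fetal and 582, 575 and 518 CPM in adult libraries. Under both epithelial sums 1 of the 17 was called lower, and 15 (6-gene sum) or 11 (3-gene sum) were called higher. Over all genes, the 6-gene sum called 9386 of 13257 higher and 1050 lower, and the 3-gene sum 5672 of 13282 higher and 1951 lower.

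Genes linked to CDX factors split. Of 10 tested, 5 were higher, 4 lower and 1 not called, with a median of 0.15, beside 29.0% higher and 25.9% lower of all tested genes. The 6-gene sum gave 6 higher and 3 lower, where 9386 of all 13257 genes were called higher and 1050 lower. Lct, the lactase of suckling animals, was at 449, 630.3 and 676 CPM in fetal and 85.8, 107.5 and 98.4 CPM in adult libraries, and the meprin subunit Mep1a was higher by 3.18 ± 0.13 on the log2 scale (edgeR adjusted p = 1.09e-08 for Lct and 5.24e-10 for Mep1a). Sis, the sucrase of the adult enterocyte and a textbook target of Cdx2, was at 24.4, 28.1 and 33.3 CPM in fetal and 649, 442 and 346 CPM in adult libraries (log2 fold change −4.06 ± 0.21, edgeR adjusted p = 4.73e-09). Muc2, the goblet cell mucin, was at 147, 214 and 227 against 3874, 3816 and 1947 CPM (log2 fold change −4.03 ± 0.25, edgeR adjusted p = 2.92e-08). These 4 are the genes of smallest p in the list, and the other 6 differed by 2.34-fold or less. Cdh17, the intestinal cadherin, was at 852, 886 and 892 CPM in fetal and 897, 923 and 834 CPM in adult libraries and was not called (edgeR adjusted p = 0.914, 95% interval of the log2 fold change −0.19 to 0.17).

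**Figure D5:**
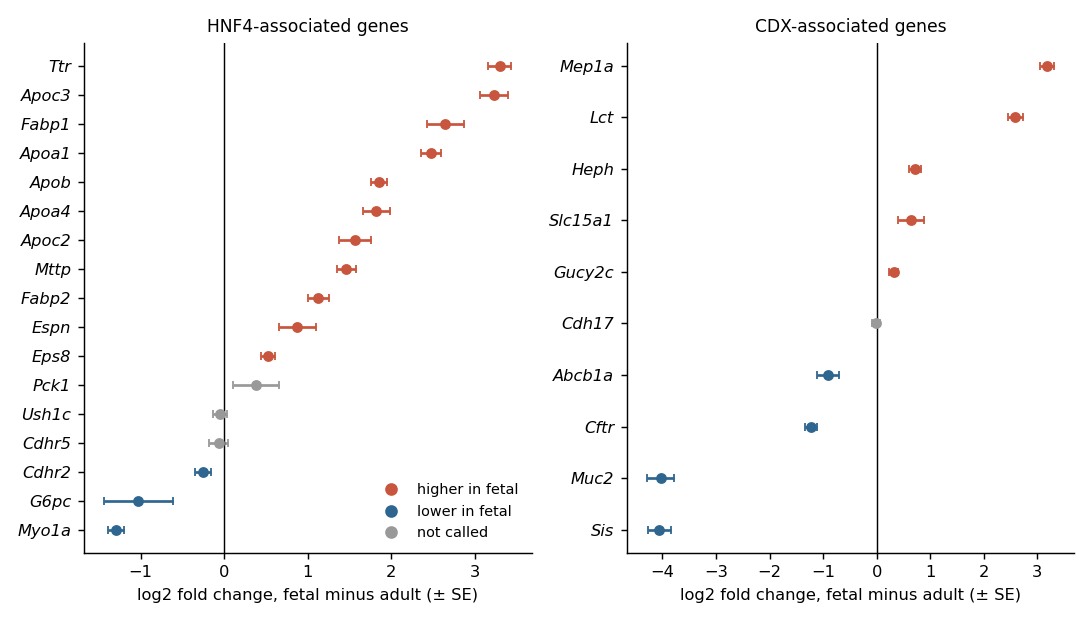
Log2 fold change (fetal minus adult) with SE of 17 genes associated with HNF4 factors, left, and 10 associated with CDX factors, right, coloured by call (red higher in fetal cells, blue lower, grey not called). The HNF4 panel has 11 points called above 0, and in the CDX panel Sis and Muc2 lie near −4 while Mep1a and Lct lie above 2.

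Regional genes of the intestine were compared because GATA4 and PDX1 mark the proximal and CDX factors the more distal gut. Under TMM, the counts below stand beside 29.0% called higher and 25.9% called lower of all tested genes. Of 6 proximal genes 4 were higher in fetal cells, 1 lower and 1 not called. Scaling to 6 epithelial genes gave 4 higher and 1 lower, where 9386 of all 13257 genes were called higher and 1050 lower. The iron exporter Slc40a1 was at 267, 284 and 319 CPM in fetal and 58.4, 57.9 and 49.9 CPM in adult libraries (log2 fold change 2.39 ± 0.10, edgeR adjusted p = 7.58e-10), and the duodenal ferric reductase Cybrd1 was higher by 4.39 ± 0.26. The hormones Sct and Cck were higher by 2.17 ± 0.16 and 1.78 ± 0.21, and the folate transporter Slc46a1, named after its value was seen, was lower at −1.97 ± 0.27. Of 7 distal and colonic genes 3 were tested, with the bile acid exporter subunit Slc51a (1.29 ± 0.11) and the hormone Pyy (3.04 ± 0.41) higher and the other subunit Slc51b (−0.94 ± 0.22) lower. Scaling to 6 epithelial genes, with the same 9386 higher and 1050 lower of all genes, gave 2 higher and 0 lower.

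Noncoding transcripts overlap 4 of the factors, and the strand setting of the counts is not given in the sources used here, so their reads cannot be told apart from those of the factors. They were low in counts beside the factors. Gata6os, beside the Gata6 start with a 58-base overlap, had 122, 148 and 269 counts in fetal and 66, 53 and 66 in adult libraries and was higher in fetal cells, as Gata6 was (log2 fold change 0.89 ± 0.21, edgeR adjusted p = 0.00267). Gata5os, which overlaps Gata5 by 2647 bases, had 51, 59 and 85 against 64, 61 and 55 counts and was lower, as Gata5 was (log2 fold change −0.52 ± 0.19, edgeR adjusted p = 0.0382). Plut, which overlaps Pdx1 by 1425 bases, had 50, 73 and 99 against 25, 39 and 30 counts and was not called (log2 fold change 0.60 ± 0.25, edgeR adjusted p = 0.0549). Hnf4aos, which overlaps Hnf4a by 34911 bases, had 10, 25 and 26 against 5, 5 and 3 counts and was not tested.

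By the distance between centred log2 CPM profiles over the 6 libraries, Hnf4a lay closest to Gata5 (0.203) and then Elf3 (0.258), Hnf4g to Pdx1 (0.223) and then Gata6 (0.260), and Cdx2 to Gata4 (0.273). With 6 libraries in 2 groups, such distances mostly reflect the group difference. Among 10035 other genes, the nearest profiles were Mgam and Trafd1 for Hnf4a, Zfp952 and Usp12 for Hnf4g, Krt8 and B3gnt3 for Elf3, and Pidd1 and Sorl1 for Cdx1. They were Ankrd11 and Ccni for Cdx2, Src and Ranbp3 for Gata4, Kifc1 and Inpp5b for Gata5, Palld and Map4k5 for Gata6, and Tbc1d2b and Pex26 for Pdx1. The distances were 0.0567 to 0.111, with Pearson r of 0.964 to 0.999 over the 6 libraries. Mgam, the brush border maltase-glucoamylase, was at −1.05 ± 0.08 on the log2 scale, beside −1.06 for Hnf4a. Krt8, a keratin of simple epithelium, was at −1.11 ± 0.08, beside −1.17 for Elf3.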

How the data were processed

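The deposited table holds whole-number counts per gene beside Entrez identifiers and symbols, and its unequal column totals show no normalization by the authors. Build mm10, the counter featureCounts and edgeR are named in the submitters' processing notes, without versions of the tools. Aligner, annotation and strand setting: not given in the sources used here. Fetal and adult columns were matched to samples by the labels, and 0 other columns of samples were left out.

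Counts were tested with the edgeR 4.0.16 quasi-likelihood test (R 4.3.3) after filterByExpr by group and TMM scaling, with no covariate and Benjamini-Hochberg adjustment over all tested genes. The SE is the log2 fold change divided by the square root of F. Ratios used a pseudocount of 0.5 counts and exact permutation tests. Log2 CPM profiles used a pseudocount of 0.5 CPM. Exon lengths are from GENCODE M21, and coordinates and promoter windows (for 5 of the 9 factors) from RefSeq, both on mm10 and matched on Entrez identifiers or symbols. A floor for 0 counts is 3 counts over the group, per total count.

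The factors and the 17 gene lists were chosen with earlier results of these data known. Named were the 9 factors, their 2 nearest profiles among genes of average log2 CPM of at least 3 (predicted and clone names left out), genes overlapping a factor, the partner factors and paralogs, and, per list, the called members of smallest p, at most 4. Some list genes and a motif are not reported here and were left out of the lists and counts. The procedure was tested on simulated counts. Alternatives were RLE size factors, library size, 2 sums of epithelial genes as library size, no filter, no Rn45s, DESeq2 1.42.0, a replicate block, a 2-fold minimum and leaving out each library.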

Additional observations from a re-analysis of the deposited data

How the results depend on the processing

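The direction of a factor was kept in 123 of 126 fits (9 factors under 14 alternatives) and its call in 112. With the 6-gene epithelial sum as library size, 9386 genes were called higher and 1050 lower, and 5 factors higher and 3 lower. Cdx2 (0.33) and Gata4 (0.46) then reversed. With the sum of Epcam, Cdh1 and Vil1, 1951 genes were called lower and Gata4 reversed (0.088). Calls that were higher in fetal cells made up 52.8% of calls in the reported fit, 89.9% under the first sum and 74.4% under the second. A 2-fold minimum left 2 factors, beside 3183 of all 13314 tested genes. Hnf4a, Hnf4g, Elf3, Gata5 and Gata6 kept direction and call in all 14 alternatives, Cdx1 in 13, Gata4 in 12, Cdx2 in 11 and Pdx1 in 6. Leaving out 1 library gave −1.09 to −1.03 for Hnf4a, 0.30 to 0.39 for Hnf4g, −1.22 to −1.12 for Elf3, −0.84 to −0.70 for Cdx1, −0.32 to −0.21 for Cdx2, −0.19 to −0.064 for Gata4, −1.003 to −0.92 for Gata5, 0.45 to 0.59 for Gata6 and 0.19 to 0.33 for Pdx1. The labels do not say that equal replicate numbers share an animal or day, and the deviations of equally numbered libraries correlated at −0.0707, −0.037 and −0.0969, so the numbers were not taken as pairs. With the replicate block 6886 genes were called, and Pdx1 was at 0.25 and not called (edgeR adjusted p = 0.0514). Without the filter on low counts Pdx1 was not called either (edgeR adjusted p = 0.0601). Of 370 list counts under the alternatives, 329 were within 1.5 times the reported count. With 3 libraries a group, the 95% intervals of the factors span about 0.4 on the log2 scale.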
